A study of Mus musculus with 18 samples.

Results

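Neutrophil granule and maturation genes were followed in the mouse spleen. The members are 32 genes chosen by their function, from the granule proteins of early neutrophils to the surface receptors of late ones. No measured value was part of that rule, but the list was chosen with earlier results of these data known. All 32 were among the 19320 genes whose name stands on a single line of the deposited table, and 31 of them were among the 12905 genes that could be tested. The remaining member, Itgb2l, reached an RPKM of 1 in only 2 libraries.

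Neutrophils make their granules in order as they mature. Promyelocytes fill primary granules with proteases such as neutrophil elastase, myelocytes fill secondary granules with lactoferrin and cathelicidin, and later cells add gelatinase granules, the calprotectin subunits and the receptors used in blood. The mouse spleen, unlike the human one, goes on making blood cells in adult life, so RNA of both immature and circulating neutrophils can be present in it.

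The study asked whether gut microbiota of donors fed alginate oligosaccharide (AOS), made of short sugars of brown algae, could help mice made diabetic. RNA of frozen spleens from ICR mice, an outbred strain, at an age of 10 weeks was sequenced in 18 libraries, 3 for each of 6 groups. Con mice were the controls, to which the study's methods give saline and the usual diet, and A10 mice received AOS at 10 mg/kg. STZ mice received streptozotocin, a toxin of the insulin-producing beta cells that models type 1 diabetes, and STZ-A10 mice received streptozotocin and AOS at 10 mg/kg. A10-FMT mice received streptozotocin and a fecal microbiota transplant from donors given AOS at 10 mg/kg, and Con-FMT mice received streptozotocin and a transplant from control donors. The study's methods describe male mice and place the groups Con, STZ, A10-FMT and Con-FMT in 1 experiment. They also name an A10 group, dosed with AOS in the earlier experiment that supplied the donor microbiota, and whether the A10 libraries came from it is not stated. STZ-A10 is known here from the sample labels. Nothing states whether the 3 libraries of a group came from separate animals or from pools, so a p-value measures only the spread between these libraries.

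RPKM is a read count scaled by the length of the gene and by the mapped reads of the library. An RPKM of 1 was reached by 11532 to 12893 genes, and the globin genes took 10.4% to 42.7% of the summed RPKM. The table holds no read counts. From the steps between low values, a library was estimated to hold about 9870000 mapped reads, with a relative depth of 0.959 to 1.08 between libraries. Con replicates 1 and 2 stand apart from the other libraries in the members, and results that rest on them are given with and without them. The members made up 2.15% of the summed RPKM in Con replicate 1, 0.669% in Con replicate 2 and 0.0865% to 0.264% in the other 16 libraries.

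The letters bound by C/EBP factors and by PU.1, the regulators of granulocyte genes, were searched because the members' levels moved together. The stretch from 250 bases before to 50 bases after the RefSeq start site (GRCm38.p6) was read for 28 of the 32 members. The letters TTGCNNAA, on either strand, stood in this stretch of 11 of the 28 members (39.3%) and of 12.2% of all 27025 genes. In Ms4a3, 1 of the 11, the match lies 41 bases after the start, and in the other 10 a match begins before it. The letters GAGGAAGT, a form of the PU.1 site, also searched on both strands, stood in the stretch of 8 of the 28 (28.6%) and of 3.69% of all genes. Mmp8 and Ly6g held both. The 4 stretches shown are those of Ngp and Ltf, secondary granule genes with C/EBP letters, of Elane, a primary granule gene, and of S100a8, the calprotectin gene, both with PU.1 letters. Capitals mark the match, and each stretch reads along the plus strand, on which all 4 genes lie, and stops before the first annotated start of the gene.
Ngp, chr9:110419650-110419746: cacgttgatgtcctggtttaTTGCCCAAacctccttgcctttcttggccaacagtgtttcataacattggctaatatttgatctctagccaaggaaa
Ltf, chr9:111019197-111019270: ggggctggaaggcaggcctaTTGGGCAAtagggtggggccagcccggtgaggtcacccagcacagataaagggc
Elane, chr10:79886207-79886246: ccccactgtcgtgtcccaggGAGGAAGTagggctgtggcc
S100a8, chr3:90668879-90668977: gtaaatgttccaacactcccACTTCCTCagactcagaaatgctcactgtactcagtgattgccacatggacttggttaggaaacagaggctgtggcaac
The Ngp match begins 138 bases before the RefSeq start site, and a second C/EBP match, not shown, begins 11 bases before it. The match of Ltf begins 75 bases, that of Elane 85 bases and that of S100a8 172 bases before the start. A match is a description of these letters, not a binding site.

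Several members are neighbours in the genome. In GENCODE M21 (GRCm38), Prtn3 (chr10:79874476-79883174) and Elane (chr10:79886247-79888215) lie 3072 bases apart on the plus strand. S100a8 (chr3:90668978-90670035) and S100a9 (chr3:90692632-90695721) lie 22596 bases apart on opposite strands. Camp (chr9:109847379-109849617), Ngp (chr9:110419747-110423012) and Ltf (chr9:111019271-111042767) lie on 1 chromosome, with 570129 bases between Camp and Ngp. All 32 members are annotated as protein-coding genes.

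The levels of the granule genes spread far more among the 3 Con libraries than between the other groups. This did not hold for every member. Serpinb1a, for example, was at 77.5 to 129 RPKM in Con and at 39.9 to 117 RPKM in the 16 libraries other than Con replicates 1 and 2. All 32 members had their highest value of the 18 libraries in Con replicate 1, and all 32 were ordered Con replicate 1, then 2, then 3. For 24 of the 32, Con replicate 2 was above all 16 other libraries as well. Con replicate 3 lay among the other groups.

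**Figure D1:**
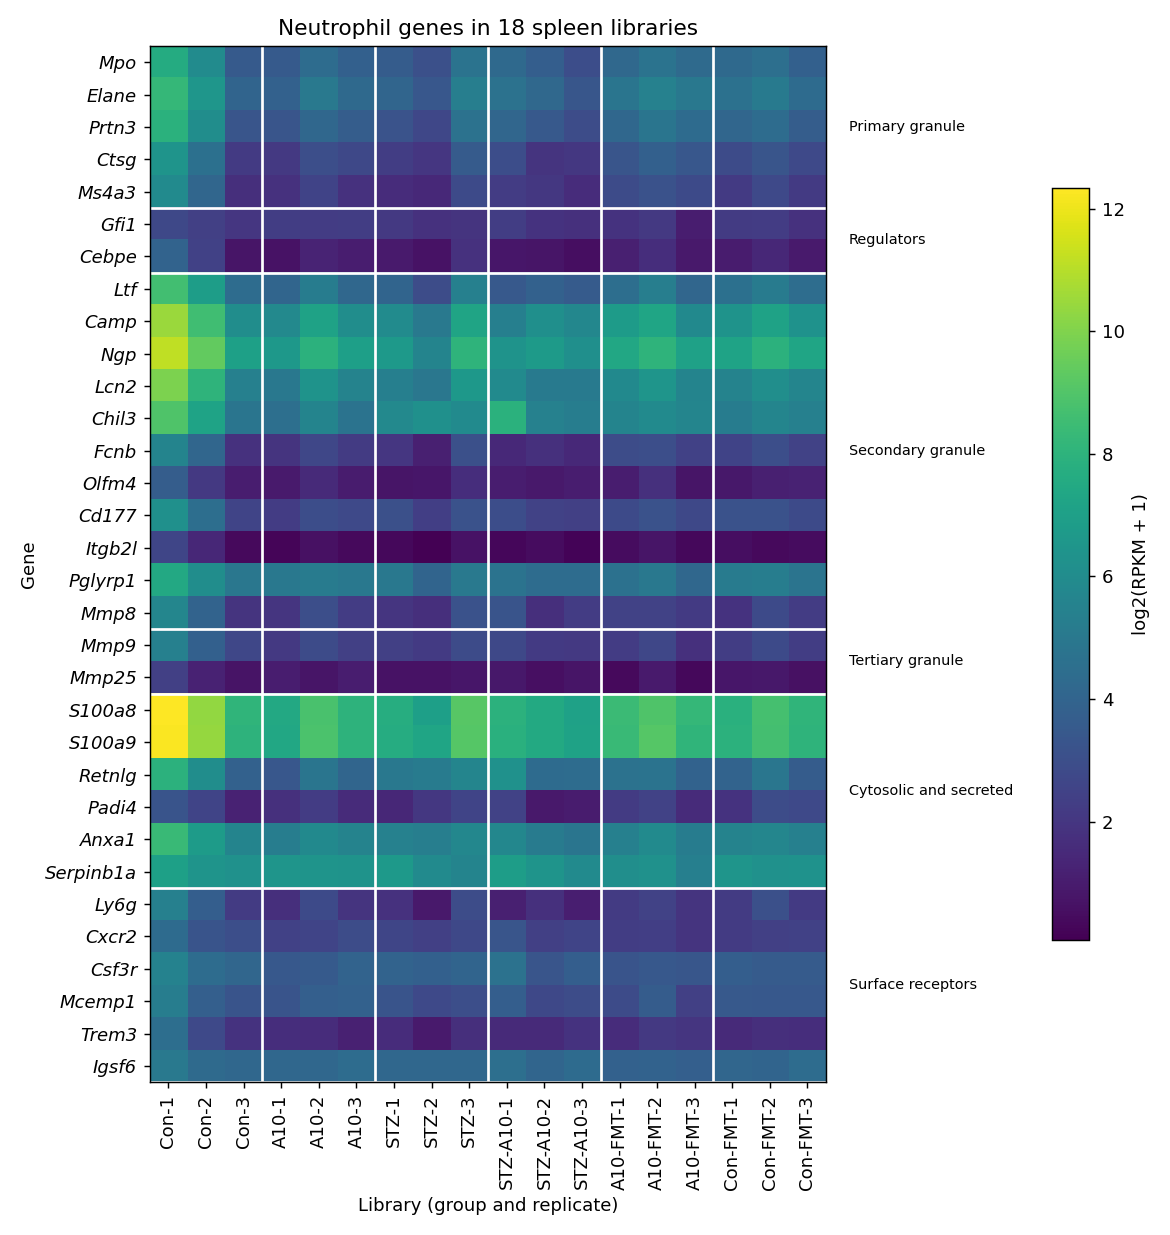
Level of each of the 32 members, as log2(RPKM + 1) on the colour scale, in each of the 18 libraries (columns, by group and replicate), with the genes in rows by granule stage. The columns of Con replicate 1 and Con replicate 2 are the brightest for the granule genes other than Chil3, and Con replicate 3 resembles the 15 libraries of the other groups. In Chil3, STZ-A10 replicate 1 lies above Con replicate 2.

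The primary granule and promyelocyte genes were Mpo (myeloperoxidase, which makes hypochlorous acid), Elane, Prtn3 and Ctsg (serine proteases of the primary granule) and Ms4a3, a membrane protein of granulocyte progenitors. Elane was at 304, 91.1 and 15.5 RPKM in Con replicates 1, 2 and 3. It was at 13.7, 31.6 and 18.2 RPKM in A10, at 15.99, 9.40 and 38.7 RPKM in STZ and at 25.2, 17.8 and 9.13 RPKM in STZ-A10. The transplant groups held 27.5, 43.1 and 30.4 RPKM in A10-FMT and 24.1, 34.1 and 19.7 RPKM in Con-FMT. Every group other than Con thus lay within the range set by 9.13 and 43.1 RPKM, and Con replicate 3 lay inside that range. Mpo was at 198, 62.3 and 10.6 RPKM in Con and at 11.3, 7.32 and 26.1 RPKM in STZ, and Prtn3 at 239, 66.4 and 8.75 RPKM in Con and at 8.28, 5.33 and 24.9 RPKM in STZ. In these 3 genes Con replicates 1 and 2 were above every STZ library and Con replicate 3 was not. Ctsg was highest at 84.2 and Ms4a3 at 60.2 RPKM, both in Con replicate 1.

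The regulators were Cebpe, the C/EBP factor needed for secondary granules, and Gfi1, a repressor needed for granulocyte fate. Cebpe followed the primary granule genes, with 14.9, 4.47 and 0.69 RPKM in Con and 0.94, 0.61 and 2.47 RPKM in STZ. Gfi1 did so much less, with 5.53, 4.19 and 3.06 RPKM in Con and 3.35, 2.51 and 2.72 RPKM in STZ. Con replicate 1 stood 21.6 times above Con replicate 3 in Cebpe and 1.81 times in Gfi1.

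The secondary granule genes were led by Ngp (neutrophilic granule protein), Camp (the cathelicidin antimicrobial peptide) and Lcn2 (lipocalin, which withholds iron from bacteria). Ngp was at 2275, 679 and 128 RPKM in Con, at 95.9, 244 and 128 RPKM in A10 and at 104, 48.3 and 267 RPKM in STZ. It was at 81.0, 106 and 70.8 RPKM in STZ-A10, at 170.1, 262 and 135 RPKM in A10-FMT and at 144, 249 and 155 RPKM in Con-FMT. The 3 Con libraries thus spanned 17.7-fold, and the 16 libraries other than Con replicates 1 and 2 ran from 48.3 to 267 RPKM. Camp was at 1412, 385 and 67.0 RPKM in Con and 62.3, 31.1 and 152 RPKM in STZ, and Lcn2 at 952, 259 and 42.1 RPKM in Con and 39.8, 30.0 and 96.9 RPKM in STZ. The STZ libraries overlapped Con replicate 3 in both genes. Of the other members of this stage, Ltf (lactoferrin) reached 397, Chil3 (a chitinase-like protein) 491, Pglyrp1 (a peptidoglycan-binding protein) 174, Cd177 (a surface and granule glycoprotein) 74.7 and Mmp8 (neutrophil collagenase) 51.1 RPKM in Con replicate 1. Fcnb, a ficolin, and Olfm4, which marks a subset of neutrophils, reached 47.9 and 12.02 RPKM in that library. Itgb2l, an integrin chain, was at 5.15 and 1.74 RPKM in Con replicates 1 and 2 and at 0.05 to 0.68 RPKM in the other 16, where a single read is estimated to be worth 0.0373 RPKM.

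The tertiary granule genes were Mmp9 (gelatinase B) and Mmp25, a membrane-bound metalloprotease. Mmp9 was at 41.2, 13.4 and 5.38 RPKM in Con and at 4.29, 3.49 and 6.27 RPKM in STZ. Mmp25 was low throughout, with 4.21, 1.38 and 0.62 RPKM in Con and 0.57, 0.57 and 0.77 RPKM in STZ. Both were highest in Con replicate 1 by a smaller ratio than the primary granule genes.

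The cytosolic and secreted proteins included the most abundant members, S100a8 and S100a9, the subunits of calprotectin. S100a8 was at 5154, 1315 and 276 RPKM in Con, at 177, 455 and 258 RPKM in A10 and at 210.2, 128 and 567 RPKM in STZ. It was at 246, 182 and 136 RPKM in STZ-A10, at 342, 491 and 302 RPKM in A10-FMT and at 229, 421 and 269 RPKM in Con-FMT. S100a8 in Con replicate 3 was thus inside the range of the other groups. S100a9 was at 4936, 1355 and 254 RPKM in Con and at 203, 152 and 549 RPKM in STZ. Serpinb1a, an inhibitor of the granule proteases, had the smallest spread in Con of all 31 tested members, with 129, 85.5 and 77.5 RPKM in Con and 101, 61.0 and 47.1 RPKM in STZ. Anxa1 (annexin, an anti-inflammatory mediator) ran from 27.4 to 330.4 RPKM, Retnlg (a resistin-like protein) from 9.40 to 250 RPKM and Padi4 (the enzyme that citrullinates histones in neutrophil traps) from 0.87 to 8.51 RPKM over the 18 libraries.

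The surface receptors were 6 genes, of which Ly6g spread most over the libraries and Igsf6 least. Csf3r, the receptor of granulocyte colony-stimulating factor, was at 44.2, 20.04 and 16.5 RPKM in Con, at 9.80, 10.8 and 14.8 RPKM in A10 and at 14.5, 13.1 and 15.5 RPKM in STZ. It was at 24.9, 8.72 and 12.1 RPKM in STZ-A10, at 8.49, 9.78 and 9.19 RPKM in A10-FMT and at 12.5, 10.9 and 10.96 RPKM in Con-FMT. All 3 Con libraries were above all STZ and all A10 libraries in Csf3r. Mcemp1, a lectin-like membrane protein, was at 37.9, 12.7 and 8.41 RPKM in Con and 8.45, 5.93 and 7.09 RPKM in STZ, and Igsf6, an immunoglobulin-family membrane protein, at 31.9, 19.0 and 16.8 RPKM in Con and 17.2, 17.2 and 17.0 RPKM in STZ. Igsf6 is the member in which the STZ libraries were closest together relative to their mean. Cxcr2, the receptor by which mature neutrophils leave the marrow, was at 19.4, 8.65 and 7.01 RPKM in Con and at 5.22, 4.22 and 5.64 RPKM in STZ. Trem3, an activating receptor, was at 21.5, 5.83 and 2.61 RPKM in Con and at 2.06, 0.96 and 2.27 RPKM in STZ. Ly6g, the usual surface marker of mouse neutrophils, was at 41.3, 12.3 and 3.61 RPKM in Con and at 2.48, 0.89 and 6.69 RPKM in STZ.

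**Figure D2:**
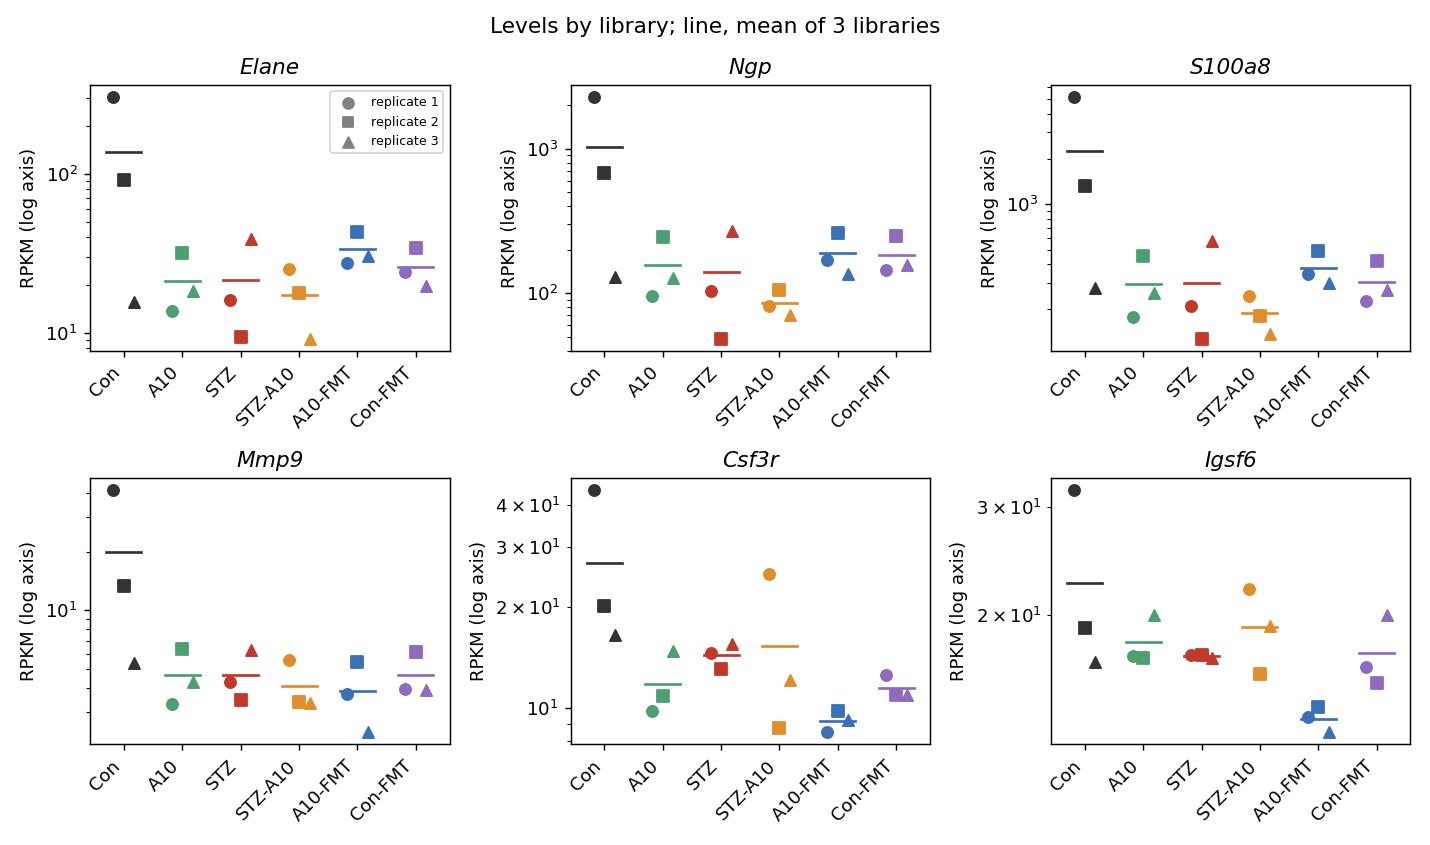
RPKM on a log axis of 6 members, 1 or more from each protein stage, in the 18 libraries, where the marker shape gives the replicate, the colour the group and the line the mean of 3 libraries. In Elane, Ngp and S100a8 the points of Con replicates 1 and 2 lie above all others and Con replicate 3 lies among them, and in Csf3r and Igsf6 the range is narrower.

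The ratio of Con replicate 1 to Con replicate 3 was highest in the primary granule genes and lowest in the surface receptors. Its median was 24.6 (18.6 to 27.3) for the 5 primary granule genes, 17.9 (5.9 to 22.6) for the 10 tested secondary granule genes and 7.23 for the 2 tertiary granule genes. It was 12.7 (1.67 to 19.4) for the 6 cytosolic and secreted proteins and 3.64 (1.9 to 11.4) for the 6 surface receptors. Over the 31 tested members the median ratio was 17.7, and that of Con replicate 2 to Con replicate 3 was 4.77. Over all 12856 tested genes above 0 in Con these medians were 0.893 and 0.972. Of the 31 members, 25 were at least 5 times higher in Con replicate 1 than in Con replicate 3, a ratio that 103 genes in all (0.801%) reached. This compares 3 libraries of 1 group, and no test was made.

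**Figure D3:**
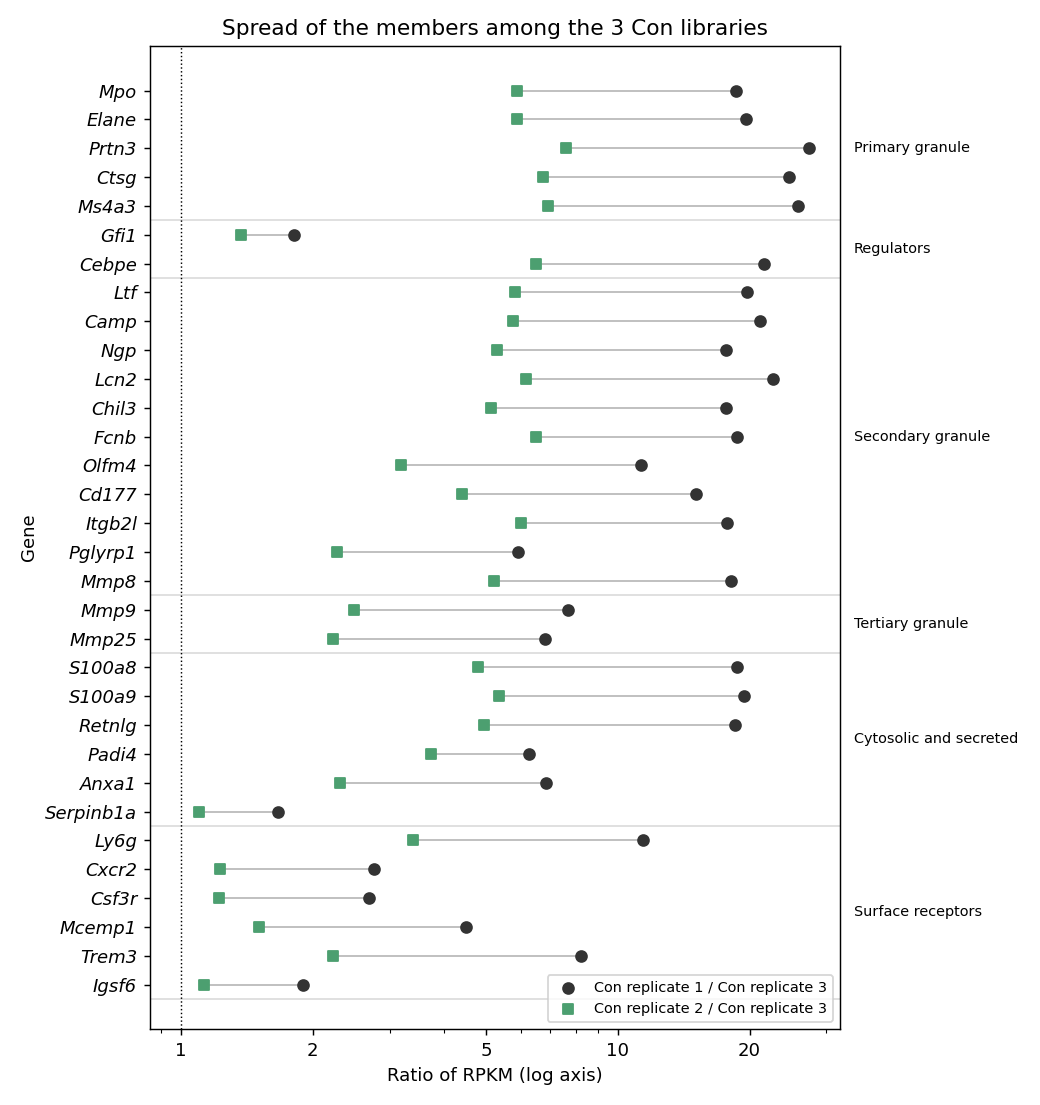
Ratio of RPKM, on a log axis, of Con replicate 1 (circles) and Con replicate 2 (squares) to Con replicate 3 for each of the 32 members, in rows by stage. The circles of the primary granule genes lie between 18.6 and 27.3, whereas Gfi1, Serpinb1a and Igsf6 lie below 2.

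Gene lists of other cells were read in the same libraries, and their part in the members' spread was not tested. The median ratio of Con replicate 1 to Con replicate 3 was 1.35 (0.368 to 15.3) for 41 other genes of the neutrophil pathway. That list is not limited to genes of neutrophils and holds, for example, the chemokine Cxcl12. The median was 2.88 (0.777 to 17.2) for 7 eosinophil genes and 2.62 for 10 platelet and megakaryocyte genes. It was 1.82 for 10 proliferation genes and 1.58 for 9 erythroid genes. It was 1.02 for 10 monocyte genes, 0.989 for 7 basophil and mast cell genes, 0.891 for 10 progenitor genes and 0.771 for 10 red pulp macrophage genes. It was 0.566 for 9 B cell genes and 0.516 for 9 T cell genes. Lists of other organs also differed between the Con libraries. The summed RPKM of the 10 exocrine pancreas genes was 1396, 230.4 and 21.6 in Con replicates 1, 2 and 3, that of 10 liver genes 63.6, 339 and 307 and that of 10 testis germ cell genes 35.2, 297 and 18.3. In the other groups the pancreas sum ran from 39.5 to 15266, the liver sum from 56.0 to 429.7 and the testis sum from 0.41 to 8.78. Of the cells that define a spleen, the summed B cell genes were at 603 to 2804 RPKM and those of the red pulp macrophage at 359.9 to 794 RPKM in the 18 libraries. In bulk RNA, fewer neutrophils and less of a transcript in each neutrophil cannot be told apart.

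Members of the primary and secondary granule stages moved together most closely from library to library, and those of the other stages less. Over the 18 libraries the median Pearson correlation of log2 values between pairs of members was 0.983 for the primary granule genes, 0.923 for the secondary granule genes and 0.73 for the surface receptors. Over the 16 libraries without Con replicates 1 and 2 these medians were 0.937, 0.645 and 0.27, and the median over all 465 pairs of members went from 0.831 to 0.468. For the cytosolic and secreted proteins the median went from 0.691 to 0.381. The 1 pair of tertiary granule genes went from 0.905 to 0.492 and that of the regulators from 0.542 to 0.173. The receptors, the cytosolic and secreted proteins and the regulators were thus below all pairs. Pairs of genes share their libraries, so these are descriptions. The order within each group was also shared. All 32 members were highest in A10-FMT replicate 2 among the A10-FMT libraries, 27 in STZ replicate 3, 25 in STZ-A10 replicate 1, 25 in Con-FMT replicate 2 and 24 in A10 replicate 2 among the libraries of their own group. The share of all genes highest in the same libraries was not taken, so these counts are not particular to the members. Globin genes took 39.5%, 28.3% and 42.7% of the summed RPKM in A10-FMT replicates 1, 2 and 3, and their part in this order was not tested. The summed RPKM of the 32 members was 2116 in STZ replicate 3, against 1013 and 708 in STZ replicates 1 and 2.

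Outside the neutrophil lists, the 10 genes whose log2 values correlated best with the mean of the secondary granule members over the 18 libraries, of 12831 compared, included Rab44, Alox5 (the enzyme that starts leukotriene synthesis), Adgrg3, Mrgpra2b and Pram1. The others were 1700020L24Rik, Tspoap1, Lta4h (which makes leukotriene B4), Ltb4r1 (a receptor of leukotriene B4) and a gene whose name had been turned into a date. Their correlations ran from 0.892 to 0.957 over 18 libraries and from 0.257 to 0.722 over the 16 libraries without Con replicates 1 and 2. Rab44 was at 8.32, 3.48 and 1.10 RPKM in Con and at 0.49 to 1.79 RPKM in the other groups.

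What streptozotocin changed was asked by setting STZ against Con. All 31 tested members were lower in STZ than in Con by their mean log2 value, with a median log2 fold change of -1.57 against -0.01 over all genes tested, on the log2(RPKM + 1) scale. No member passed the test (limma, lowest adjusted p 0.118, in Trem3), and 0.163% of all genes did. At an unadjusted p under 0.05, 25 of the 31 were lower, against 6.44% of all genes. The libraries of the groups did not overlap in 3 members, Cxcr2, Csf3r and Trem3, all surface receptors and lower in STZ, against 7.07% of all genes, and in 0 members higher in STZ, against 5.77%. A count of 3 of 31 is near the share of all genes.

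By stage, the median log2 fold change of STZ against Con was -1.95 for the primary granule genes, -1.68 for the secondary granule genes, -1.12 for the tertiary granule genes, -1.07 for the cytosolic and secreted proteins and -1.02 for the surface receptors. Ngp differed by -2.39 ± 0.77 (SE, limma, adjusted p = 0.197) and S100a8 by -2.31 ± 0.762 (SE, limma, adjusted p = 0.214). Elane differed by -2.02 ± 0.755 (SE, limma, adjusted p = 0.294). Trem3, whose groups did not overlap, differed by -1.61 ± 0.438 (SE, limma, adjusted p = 0.118), and Cxcr2 by -0.96 ± 0.288 (SE, limma, adjusted p = 0.164). Retnlg and Padi4 differed least for their error, by -0.70 ± 0.763 and -0.35 ± 0.504 (SE, limma, adjusted p = 0.824 and 0.879).

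These differences rested mostly on Con replicates 1 and 2, and less so in the surface receptors. Without Con replicate 1 the median of the 31 members was -0.74 and 6 were lower at an unadjusted p under 0.05. Without Con replicates 1 and 2 it was 0.02, with 14 members lower and 17 higher. This leaves 1 Con library, whose spread is assumed to be that of the other groups. By stage the median was then 0.24 for the primary granule genes, with 0 of 5 lower. For the surface receptors it was -0.27, with 5 of 6 lower. Without Con replicate 3, 21 members passed the threshold and the median of the 31 members was -2.20. The share of all genes is not given for the counts of these fits. The platelet and megakaryocyte genes, which were also high in Con replicate 1, had a median log2 fold change of -1.40 in the same comparison with 6 of 10 not overlapping. The other genes of the neutrophil pathway had a median of -0.31, with 8 of 43 lower and not overlapping.

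What AOS alone changed was asked by setting A10 against Con. This comparison shares its 3 Con libraries with STZ against Con, so the values below are not a second piece of evidence. The median log2 fold change of the 31 members was -1.58, against 0.05 over all genes. No member passed the test (limma, lowest adjusted p 0.488), and 0.00775% of all genes did. At an unadjusted p under 0.05, 25 members were lower, against 1.68% of all genes. Cxcr2, Csf3r and Trem3 were lower with no overlap, against 4.81% of all genes, and 0 members were higher with no overlap, against 11.7%. Ngp differed by -2.01 ± 0.77 and S100a8 by -2.16 ± 0.762 (SE, limma, adjusted p = 0.781 and 0.716). Csf3r differed by -1.01 ± 0.326 (SE, limma, adjusted p = 0.657). The median of the members was -0.80 without Con replicate 1 and 0.17 without Con replicates 1 and 2. Without Con replicate 3, 12 members passed the threshold, a count given without the share of all genes.

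**Figure D4:**
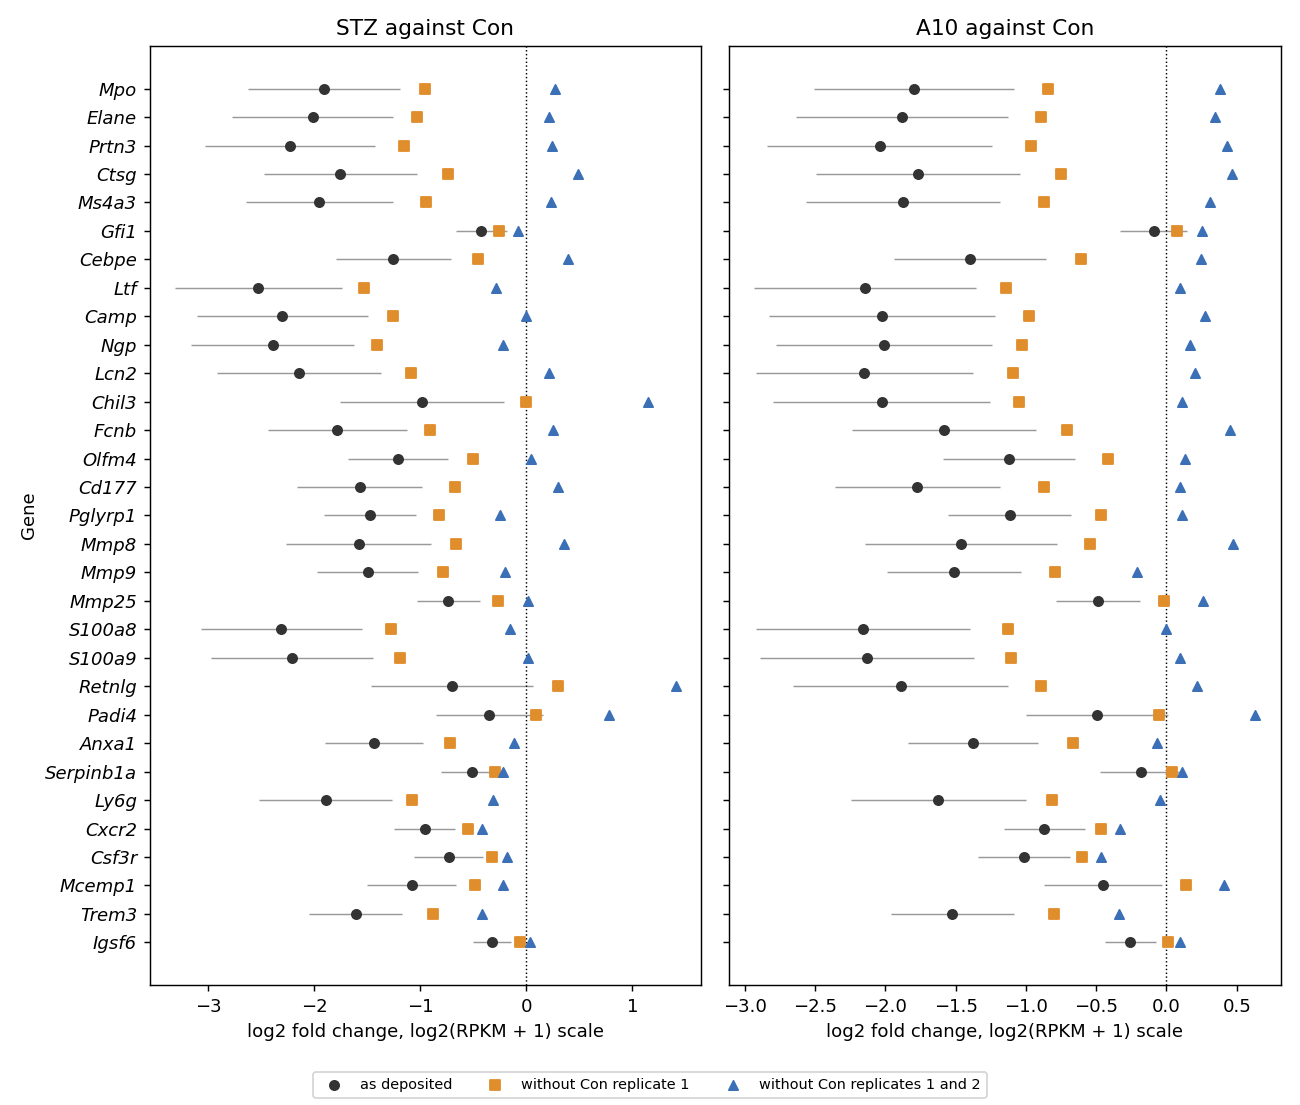
log2 fold change of the 31 tested members for STZ against Con (left) and A10 against Con (right), on the log2(RPKM + 1) scale, as deposited (circles, with the standard error as bars), without Con replicate 1 (squares) and without Con replicates 1 and 2 (triangles). The circles are all below 0, the squares lie between, and the triangles have medians of 0.02 and 0.17.

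Whether the AOS difference itself differed between mice with and without streptozotocin was tested as the interaction in the same fit. The median over the members was 1.47, against -0.02 over all genes. No member passed (limma, lowest adjusted p 1), nor did any gene (0.0%), and 2 members, Cxcr2 and Trem3, were higher at an unadjusted p under 0.05, against 1.21% of all genes. The interaction uses the Con libraries too, and it rested on them. Its median over the members was 0.61 without Con replicate 1, with 1 member higher at an unadjusted p under 0.05, against 1.8% of all genes. Without Con replicate 3 the median was 2.33, with 27 such members, against 2.04% of all genes. Without Con replicates 1 and 2 the median was -0.35, with 7 members above 0 and 24 below, and 0 were under an unadjusted p of 0.05. No member passed the threshold in any of these fits (limma, lowest adjusted p 0.564).

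Among STZ mice, AOS was asked about by setting STZ-A10 against STZ. The median of the members was -0.16, against 0.03 over all genes, with 10 members higher and 21 lower. No member passed (limma, lowest adjusted p 0.996), against 0.00775% of all genes. None was under an unadjusted p of 0.05, against 2.93% of all genes, and none was without overlap, against 3.29% of all genes higher and 4.71% lower. Ngp was at 70.8 to 106 RPKM in STZ-A10 and at 48.3 to 267 RPKM in STZ.

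The transplant of microbiota from AOS-fed donors was asked about by setting A10-FMT against STZ. The median of the members was 0.10, against -0.15 over all genes. No member passed (limma, lowest adjusted p 0.332, in Csf3r), against 0.00775% of all genes, and none was under an unadjusted p of 0.05, against 17.2% of all genes. The 5 primary granule genes had a median of 0.88, all 5 above 0, and the 6 surface receptors a median of -0.19. Retnlg, Cxcr2, Csf3r and Igsf6 were lower without overlap, a count of 4 against 12.1% of all genes, and 0 members were higher without overlap, against 2.33%. Csf3r differed by -0.60 ± 0.326 (SE, limma, adjusted p = 0.332), and Ms4a3 had the highest difference, 0.98 ± 0.69 (SE, limma, adjusted p = 0.419).

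The control transplant was asked about by setting Con-FMT against STZ. The median of the members was 0.23, against 0.00 over all genes. No member passed (limma, lowest adjusted p 0.964), against 0.00775% of all genes, and none was under an unadjusted p of 0.05, against 5.24% of all genes. Chil3, Retnlg and Csf3r were lower without overlap, a count of 3 against 6.22% of all genes, and Mcemp1 was higher without overlap, against 6.94%. Retnlg was at 14.8, 28.0 and 11.3 RPKM in Con-FMT and at 30.5, 35.6 and 48.7 RPKM in STZ, a difference of -1.11 ± 0.763 (SE, limma, adjusted p = 0.964). Both transplant comparisons share the 3 STZ libraries.

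The donors were compared by setting A10-FMT against Con-FMT. The median of the members was 0.05, against -0.17 over all genes. No member passed (limma, lowest adjusted p 0.251, in Igsf6), nor did any gene (0.0%), and none was under an unadjusted p of 0.05, against 23.6% of all genes. Ctsg and Ms4a3, both primary granule genes, were higher without overlap, a count of 2 against 5.35% of all genes. Serpinb1a, Csf3r and Igsf6 were lower without overlap, a count of 3 against 23.9% of all genes. Ms4a3 was at 6.24, 7.96 and 6.06 RPKM in A10-FMT and at 3.42, 5.80 and 3.39 RPKM in Con-FMT, a difference of 0.60 ± 0.69 (SE, limma, adjusted p = 0.554). Igsf6 was at 13.7, 14.2 and 12.9 RPKM in A10-FMT and at 16.5, 15.5 and 20.04 RPKM in Con-FMT, a difference of -0.32 ± 0.18 (SE, limma, adjusted p = 0.251).

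Because the members varied together between libraries, each was also read as a ratio of RPKM to Ngp within its library, a description chosen after the values were seen. Over the Con libraries, in which Ngp spanned 17.7-fold, the ratio of 16 of the 31 other members varied by at most 1.5-fold, and that of Chil3 by 1.03-fold and of Mmp8 by 1.04-fold. The ratio of Ltf to Ngp was 0.174, 0.172 and 0.156 in Con and 0.146, 0.135 and 0.155 in STZ. Elane stood at 0.134, 0.134 and 0.121 of Ngp in Con and at 0.154, 0.195 and 0.145 in STZ. In STZ against Con the ratio was higher without overlap in 9 members (Mpo, Elane, Ctsg, Cebpe, Chil3, Fcnb, Mmp8, Retnlg and Padi4) and lower without overlap in 1, Ltf. The ratio was not taken over all genes, so no share stands beside these counts. Ngp, the divisor, was at 2275 and 679 RPKM in Con replicates 1 and 2 and at 48.3 to 267 RPKM in STZ. Its part in these counts was not tested.

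The ratio of Retnlg to Ngp was 0.110, 0.0983 and 0.105 in Con, 0.098, 0.111 and 0.121 in A10, 0.295, 0.738 and 0.182 in STZ and 0.932, 0.185 and 0.287 in STZ-A10. It was 0.148, 0.0978 and 0.105 in A10-FMT and 0.103, 0.113 and 0.0729 in Con-FMT. The 6 STZ and STZ-A10 libraries thus lay at 0.182 to 0.932 and the other 12 at 0.0729 to 0.148, without overlap. Of the 31 members compared, Retnlg alone had all 6 of these libraries above the other 12, and of 43 other genes of the neutrophil pathway 0 did. The ratio was not taken over all genes, so no share stands beside these counts. The 12 include the transplant groups, which also received streptozotocin. Ngp was at 48.3 to 267 RPKM in the 6 and at 95.9 to 2275 RPKM in the 12, and its part was not tested. The 6 were above the 12 for Retnlg also when it was divided by Camp, Ltf, Lcn2, S100a8, S100a9, Elane or Mpo. These divisors vary together with Ngp, and Retnlg was singled out after its values were seen, so they are not separate evidence. Per S100a8, for example, Retnlg stood at 0.0859 to 0.307 in the 6 and at 0.042 to 0.0738 in the 12. The margin was narrow per Ltf, with a lowest ratio of 1.18 in the 6 and a highest of 1.15 in the 12. Per Mpo these were 1.6 and 1.45. The RPKM of Retnlg itself overlapped, at 19.5 to 75.5 in the 6 and at 9.40 to 250 in the 12.

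The ratio of Chil3 to Ngp was 0.216, 0.209 and 0.216 in Con, 0.546, 1.53 and 0.223 in STZ and 2.90, 0.402 and 0.528 in STZ-A10. It was 0.194 to 0.367 in the 12 libraries outside STZ and STZ-A10, so that 5 of the 6 lay above all 12 and STZ replicate 3 did not. The same count of 5 was reached when Chil3 was divided by Ltf, Lcn2, S100a8, S100a9, Elane or Mpo, and a count of 3 when it was divided by Camp. This pattern was not particular to Chil3, since 9 of the 43 other genes of the neutrophil pathway also had all of these libraries but STZ replicate 3 above the 12 per Ngp. Among the 9 were Lrg1, Stfa2, Stfa2l1, Il1r2, Cebpd and Cxcl12, the last of which is not limited to neutrophils. Ngp, the divisor, was at 48.3 to 106 RPKM in these 5 libraries and at 267 RPKM in STZ replicate 3. Its part in the pattern was not tested, and the ratio was not taken over all genes. Chil3 itself was at 235 RPKM in STZ-A10 replicate 1 and at 42.6 and 37.3 RPKM in STZ-A10 replicates 2 and 3.

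**Figure D5:**
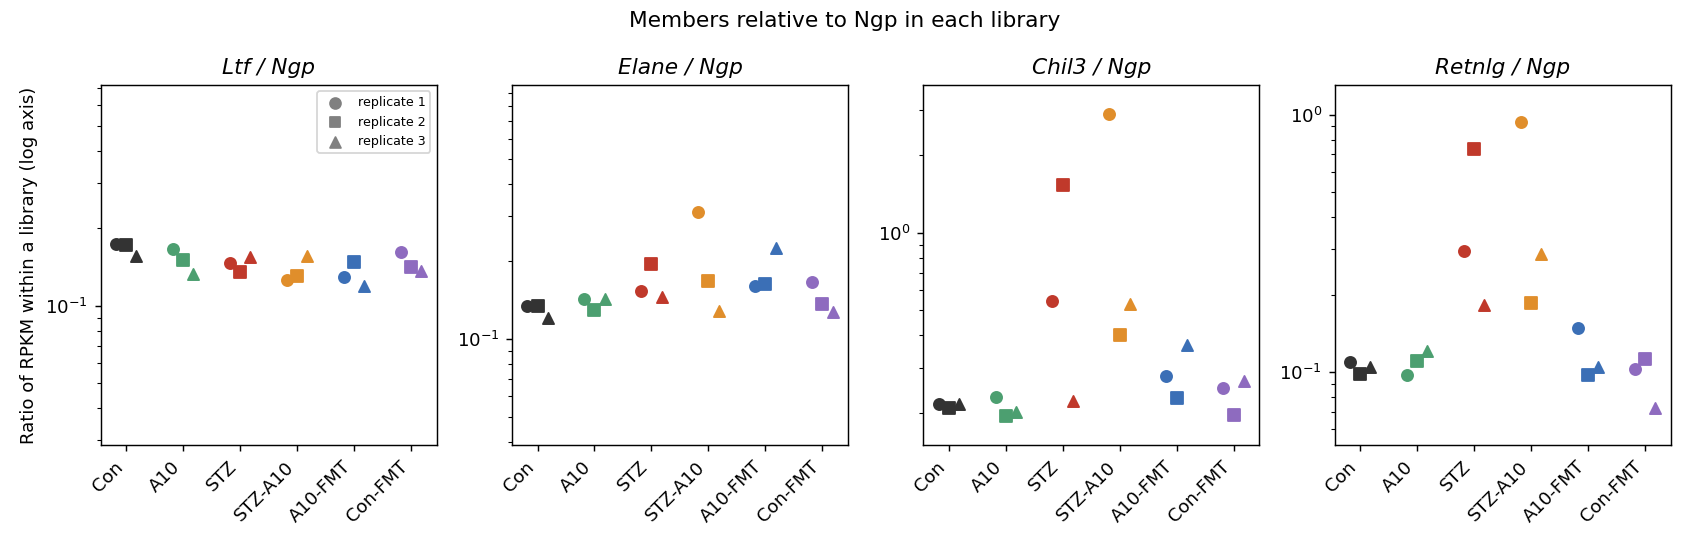
Ratio of the RPKM of Ltf, Elane, Chil3 and Retnlg to that of Ngp in each of the 18 libraries, on log axes that all span the same fold range, by group (colour) and replicate (marker). Ltf stays near the same ratio in every library, and Retnlg lies at 0.182 to 0.932 in STZ and STZ-A10 and at 0.0729 to 0.148 in the other groups.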

How the data were processed

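Spleen RNA of 18 samples (oligo(dT)-selected and sequenced on a HiSeq, by the study's methods) was analysed from a single deposited table. Its values are RPKM, computed by the authors. Their methods name SOAPaligner 2.20, whereas the submitters' processing notes name Bowtie 0.12.2 and mm10, and the roles are not given in the sources used here. The 6 lines with repeated names were left out. The log2(RPKM + 1) values were fitted by limma with trend (version 3.58.1, R 4.3.3), on genes with an RPKM of at least 1 in at least 3 libraries, with all 18 libraries in 1 fit, no covariate, two-sided p-values and Benjamini-Hochberg adjustment over all 12905 genes (threshold 0.05). No count test and no gene set test was run. The fit was run on simulated data in which each gene varied independently. The members here moved together between libraries, a setting which that run does not cover. Members given with full values are the 2 to 4 of highest mean RPKM in each stage; others are named by their values. Members and lists were chosen with earlier results of these data known. Fold changes on this scale understate low genes. Depth was estimated from the steps of 13 low genes. Alternatives were another pseudocount (0.1), no filter, median centring, quantile normalization, the compared groups only, the replicate block, array weights, the study's threshold (adjusted p of at most 0.001 and log2 fold change of at least 1) and leaving out each library.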

Additional observations from a re-analysis of the deposited data

How the results depend on the processing

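The count of members past the threshold stayed at 0 in each of the 6 comparisons and the interaction with a pseudocount of 0.1, no filter on low values, median centring, quantile normalization, a fit of the compared groups only, the replicate block and the study's threshold. It changed with array weights. The default (REML) weights stopped before converging and gave A10-FMT replicate 1 a weight of 424 and A10-FMT replicate 3 a weight of 0.0462. With them 30 members passed in STZ against Con, 26 in A10 against Con, 2 in STZ-A10 against STZ, 18 in A10-FMT against STZ, 16 in Con-FMT against STZ, 9 in A10-FMT against Con-FMT and 24 in the interaction. In STZ against Con they also called 7828 of all genes. Weights estimated gene by gene, chosen after this failure was seen, gave 26, 25, 0, 1, 3, 5 and 0 members, and 3716 of all genes in STZ against Con. For the other comparisons and the interaction the share of all genes is not given. Their counts with weights are therefore not results about the members in particular. Both sets of weights set Con replicates 1 and 3 far below Con replicate 2 (0.201 and 0.201 against 33.5, and 0.364 and 0.359 against 5.07), and the cause was not tested.

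Leaving out 1 library gave 0 to 21 members past the threshold in STZ against Con and 0 to 12 in A10 against Con, the 21 and 12 without Con replicate 3, and 0 in the other comparisons. The share of all genes is not given for these counts. Without Con replicate 3 the medians of these comparisons were -2.20 and -2.43. The median log2 fold change of A10-FMT against Con-FMT ran from -0.23 without A10-FMT replicate 2 to 0.26 without Con-FMT replicate 2. Without Con replicates 1 and 2, an alternative chosen after seeing the data, the medians of STZ against Con and A10 against Con moved to 0.019 and 0.17. In STZ against Con the sign then turned for 8 named members. Their log2 fold changes without Con replicate 3, and then without Con replicates 1 and 2, were -2.999 and 0.27 for Mpo, -3.13 and 0.21 for Elane, -3.47 and 0.24 for Prtn3, -2.08 and 0.39 for Cebpe, -3.32 and 0.21 for Lcn2, -1.11 and 0.012 for Mmp25, -3.32 and 0.019 for S100a9 and -0.50 and 0.032 for Igsf6, the second value of each with adjusted p of 0.677 or more.

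Same-numbered libraries of different groups did not deviate together (45 pairs, correlation -0.385 to 0.571, 14 over 0.1, 8 of 18 libraries closest to their own number), so the replicate block rests on a shared number only, and 0 members passed under it. The precision of low members, such as Itgb2l, Mmp25 and Cebpe, is limited by depth, which is only estimated.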

Other observations

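Of the neutrophil genes that are not members, some were high in STZ replicates 1 and 2 and in STZ-A10 replicate 1. Stfa2l1, a stefin that inhibits cysteine proteases, was at 31.0 and 28.9 RPKM in STZ replicates 1 and 2 and at 79.9 RPKM in STZ-A10 replicate 1, and at 2.26 to 21.1 RPKM elsewhere. Stfa2 was at 14.2, 18.5 and 35.0 RPKM in these 3 libraries and BC100530 at 18.15, 15.7 and 31.9 RPKM. Lrg1, a glycoprotein of neutrophils and liver, was at 42.4, 41.5 and 89.3 RPKM in them and at 64.9 RPKM in Con replicate 1. STZ replicate 3, the STZ library with the highest Ngp, held 6.74 RPKM of Stfa2l1 and 0.26 RPKM of Stfa2. These genes were chosen after their values were seen, the stefin genes have near-identical copies among which reads may be split, and no test was made.

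Prg2, the major basic protein of eosinophil granules, was at 19.8, 8.38 and 1.32 RPKM in Con replicates 1, 2 and 3 and at 14.8 RPKM in Con-FMT replicate 2. Over the 7 eosinophil genes the ratio of Con replicate 1 to Con replicate 3 ran from 0.777 to 17.2, with a median of 2.88. Prg2 thus does not stand for that list, and no test was made.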
